A study of Saccharomyces cerevisiae with 37 samples.

Results

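The late stage of an mRNA decay time course in Saccharomyces cerevisiae was examined, from 30 to 60 min after a temperature shift meant to stop transcription. The RNA polymerase II of strain Y262 is temperature-sensitive. A shift from 26 to 37 °C, made by adding medium at 49 °C, was meant to stop synthesis of mRNA in every culture. Of the 37 arrays of the study, 12 were used: those at 30, 40, 50 and 60 min from reference profile 1 (no treatment before the shift), from the oxidative stress culture (0.3 mM hydrogen peroxide) and from the DNA damage culture (0.1% methyl methanesulfonate, MMS, an alkylating agent). The stress was applied 25 or 40 min before the shift, and reference profile 2, with its last array at 30 min, was not used in the late slopes. Each treatment was 1 culture grown in rich medium, so a difference between cultures cannot be told apart from a difference between treatments, and the 4 arrays of a culture are samples of 1 flask over time. The heat step is shared by all groups, the unstressed one included.

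After transcription stops, each message is lost at its own rate, through shortening of the poly(A) tail, removal of the cap and digestion from the 5′ end, or through digestion from the 3′ end by the exosome. Long-lived yeast messages include those of glycolytic enzymes and ribosomal proteins, while messages for ribosome assembly factors are short-lived. By 30 min a time course has already lost most of the short-lived messages, so the late arrays chiefly compare messages that remain.

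Values were log2 expression levels from Affymetrix Yeast Genome 2.0 arrays. Every array was centred on its median gene, and for each gene and culture a straight line was fitted through the 4 centred values. The slope of that line, in log2 per 10 min, is called the late slope. It is 0 for a gene that moves with the median gene, negative for one that falls faster and positive for one that falls more slowly or rises. Of 5449 named genes, 3887 had a mean late level above 10.18 and were tested.

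The median gene itself fell as deposited, by 0.18 log2 per 10 min in reference 1, 0.318 in the oxidative stress culture and 0.131 in the DNA damage culture, which correspond to half-lives of 55.5, 31.4 and 76.2 min on that scale, whose scaling between arrays is not stated. The median probe set of the oxidative stress arrays did not fall steadily: it stood at 11.78 at 30 min, 10.99 at 40 min, 11.53 at 50 min and 10.47 at 60 min. As deposited, 3532 genes fell in all 3 cultures and 3 had a positive slope in all 3. These were RBG1, which encodes a GTP-binding protein, UTP15, which encodes a factor of small-subunit assembly, and ADE17, an enzyme of purine synthesis. In what follows, "rose" and "fell" are relative to the median gene unless the deposited scale is named. The mean of 17 tag probe sets, which match no yeast gene and show the array background, was set against the median of all probe sets. It fell relative to that median by 0.0251 log2 per 10 min in reference 1, by 0.28 in the oxidative stress culture and by 0.872 in the DNA damage culture. In the DNA damage culture it lay at -3.25 relative to that median at 30 min and at -6.09 at 60 min, so the low end of the scale widened there. Its part in the slopes of dim genes was not tested.

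**Figure D1:**
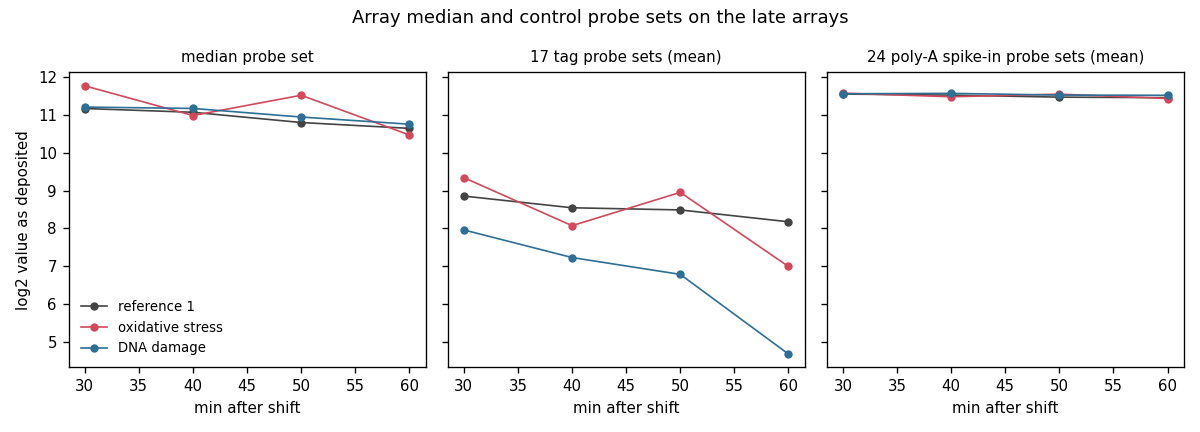
Log2 values as deposited (y axis) against minutes after the shift (x axis) for the median probe set, the mean of 17 tag probe sets and the mean of 24 poly-A spike-in probe sets, 1 point per array and 1 line per culture. The spike-in mean is nearly level in all 3 cultures, the oxidative stress median zigzags, and the tag mean of the DNA damage culture drops from 7.96 to 4.67.

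Late slopes were small beside the early ones. The standard deviation over genes of the late slope was 0.0942 in reference 1, 0.116 in the oxidative stress culture and 0.123 in the DNA damage culture, against 0.349, 0.341 and 0.37 for the slopes from 0 to 20 min. In reference 1, 76.9% of genes lay within 0.1 of the median gene, and 65.1% and 64.5% did so in the oxidative stress and DNA damage cultures. The median standard error of a slope within 1 culture was 0.0274. With the culture as the unit (3 slopes per gene, limma with Benjamini-Hochberg adjustment), 0 genes passed an adjusted p of 0.05. The lowest adjusted p was 0.0716, which 15 genes shared, and 780 genes had an unadjusted p under 0.05, of which 317 were higher and 463 lower than the median gene. A mean slope could be placed within 0.1 of 0 by its 95% interval for 374 genes. With the scatter of the 12 arrays about their lines as the error, which describes these 3 cultures and no others, 1052 genes rose (27.1% of those tested) and 1244 fell (32%). This second test is the one behind "rose" and "fell" for the mean of the 3 cultures below.

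The oxidative stress culture and reference 1 were most alike. Over the 3887 genes their late slopes correlated with r = 0.66, and 2914 genes (75%) had the same sign in both. The correlation was 0.28 between reference 1 and the DNA damage culture (59.1% of the same sign) and 0.18 between the stressed cultures (56.9%). Over the same genes the early slopes correlated more closely, with r = 0.83, 0.73 and 0.69 in the same order. Among the 2774 genes above the median level the late correlations were 0.64, 0.35 and 0.25. Genes are not independent replicates, and the arrays of a culture are samples of 1 flask, so these are descriptions. The pattern of 24 poly-A spike-in probe sets, which are added to the RNA and hold no yeast message, paired the cultures in the same way: its mean absolute difference was 0.0908 log2 between reference 1 and oxidative stress, 0.251 between reference 1 and DNA damage and 0.255 between the stressed cultures. How the arrays were handled and which culture they came from cannot be told apart here.

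**Figure D2:**
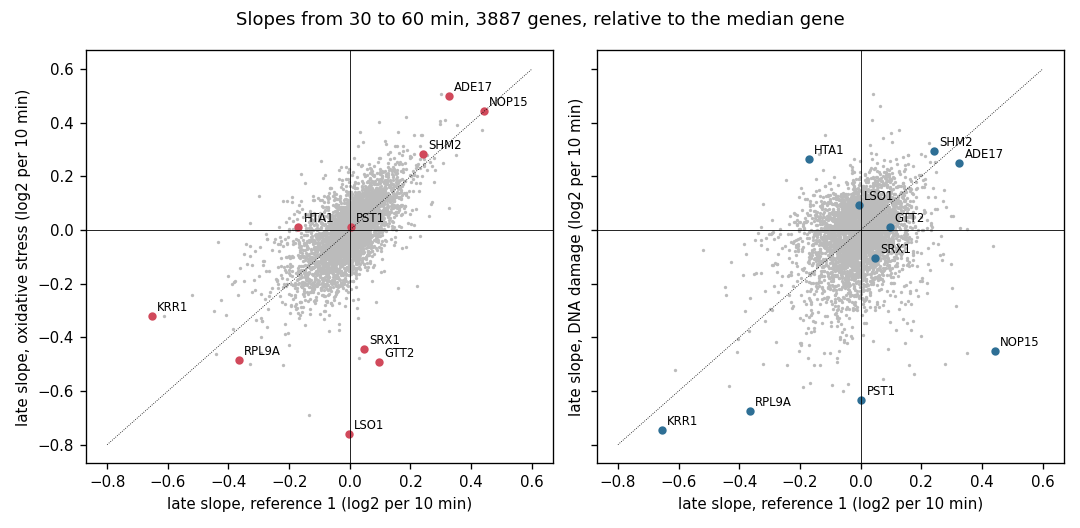
Late slopes in reference 1 (x axis) against those in the oxidative stress culture (left) and the DNA damage culture (right), all in log2 per 10 min relative to the median gene, 1 grey point per gene, with the dotted line marking equal slopes. The cloud follows the diagonal on the left (r = 0.66) and is rounder on the right (r = 0.28), with GTT2, SRX1 and LSO1 low in oxidative stress and NOP15 and PST1 low in DNA damage.

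A small set of messages fell faster than the median gene in all 3 cultures. The slope was below -0.1 in each culture for 109 genes (2.8% of those tested), above 0.1 in each for 71 (1.83%) and within 0.1 of 0 in each for 1502 (38.6%). It was negative in each culture for 905 genes (23.3%) and positive in each for 863 (22.2%). The genes described from these sets were chosen after their values were seen, so their slopes are descriptions. The median coding length was 815 bases in the falling set, 1080 in the rising set and 1245 over all genes tested. At 0 min the median level was 13.77 in the falling set and 13.02 over all genes, and the median late level was 11.49 and 11.7. The level filter used the late arrays, so it favoured falling genes that started high.

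KRR1, which encodes an assembly factor of the small ribosomal subunit, had the steepest such fall. Its centred level went from 0.52 at 30 min through -0.39 and -1.08 to -1.42 at 60 min in reference 1, from -1.11 through -2.07 and -2.10 to -2.17 in oxidative stress, and from -0.22 through -0.92 and -1.74 to -2.43 in DNA damage. Each step was downward in all 3 cultures, with the greater part of the oxidative stress drop between 30 and 40 min. RPL9A, a ribosomal protein of the large subunit, went from 2.71 through 2.42 and 2.18 to 1.57 in reference 1, from 2.44 through 1.97 and 1.38 to 1.02 in oxidative stress, and from 0.81 through -0.39 and -0.96 to -1.25 in DNA damage. Its slopes were -0.37, -0.49 and -0.67 in that order, and the DNA damage culture lay below the other two on every array. ILV3, an enzyme of branched-chain amino acid synthesis, fell to 0.40, 0.51 and 0.40 of its 30 min level relative to the median gene. URM1, a ubiquitin-related modifier, fell to 0.45, 0.61 and 0.45 of it. AFB1, named for an a-factor barrier activity, had slopes of -0.44, -0.46 and -0.24, and it was already falling from 0 to 20 min at -0.93, -0.88 and -0.57. KRR1, by contrast, had an early slope of only -0.02 in reference 1, so its fall in that culture began late.

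Of the rising set, ADE17 had the largest mean slope. The enzyme catalyses the last steps to inosine monophosphate. The level of ADE17 went from 0.36 through 0.69 and 0.94 to 1.36 in reference 1, from 0.43 through 1.05 and 1.52 to 1.94 in oxidative stress, and from 1.76 through 2.13 and 2.37 to 2.52 in DNA damage. It climbed at every step in all 3 cultures, to 2.00, 2.85 and 1.69 times its 30 min level relative to the median gene. SHM2, the cytosolic serine hydroxymethyltransferase, went from 1.31 through 1.56 and 1.77 to 2.04 in reference 1, from 1.03 through 1.44 and 1.68 to 1.90 in oxidative stress, and from 1.49 through 1.93 and 2.16 to 2.39 in DNA damage. The 3 lines were nearly parallel, with slopes of 0.24, 0.28 and 0.29. GCV1, a subunit of the glycine cleavage complex, had slopes of 0.24, 0.27 and 0.25, and GCV2, another subunit, 0.21, 0.19 and 0.19. PET18 reached 1.60, 1.70 and 1.99 times its 30 min level. ADE17 and SHM2 had early slopes of opposite sign between cultures: -0.61 and -0.38 in reference 1, -0.64 and -0.37 in oxidative stress, and 0.85 and 0.32 in DNA damage.

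**Figure D3:**
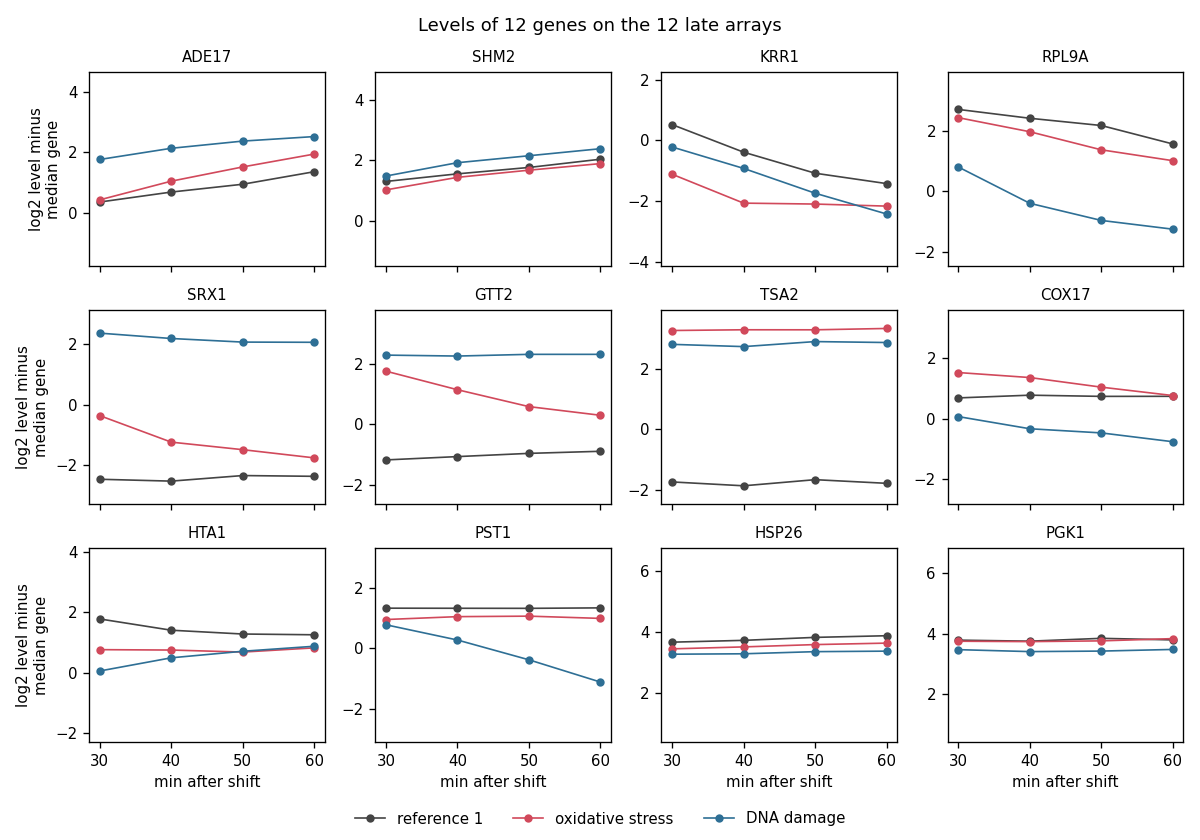
Log2 level minus that of the median gene (y axis) against minutes after the shift (x axis) for 12 genes, 1 point per array and 1 line per culture, with the same span of the y axis in every panel. ADE17 and SHM2 climb and KRR1 and RPL9A drop in all 3 cultures, whereas SRX1 and GTT2 drop steeply in oxidative stress, PST1 drops in DNA damage, HTA1 climbs in DNA damage, and TSA2, HSP26 and PGK1 stay within a narrow band.

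Many messages of respiration rose over the 3 cultures, where 27.1% of all genes rose and 32% fell by the same test. Of 11 tricarboxylic acid cycle genes tested, 10 rose and 0 fell, with median slopes of 0.0455 in reference 1, 0.0899 in oxidative stress and 0.0725 in DNA damage, against 0.00255, -0.00158 and -0.00415 over all genes. MDH1, mitochondrial malate dehydrogenase, had slopes of 0.09, 0.07 and 0.16, and IDH1, a subunit of isocitrate dehydrogenase, 0.05, 0.07 and 0.20. Of 40 genes for respiratory chain and ATP synthase subunits, 22 rose and 6 fell. SDH2 of succinate dehydrogenase (0.19, 0.12 and 0.21) and QCR2 of the cytochrome bc1 complex (0.18, 0.18 and 0.09) rose, while CYC1, cytochrome c, went from 0.16 in reference 1 to -0.22 in oxidative stress and -0.50 in DNA damage. With the 30 min arrays left out, 4 tricarboxylic acid cycle and 11 respiratory genes rose, and the medians of the mean slope were 0.0631 and 0.0448.

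Glycolytic messages neither rose nor fell by much. PGK1, phosphoglycerate kinase, stood at 3.79, 3.75, 3.85 and 3.80 from 30 to 60 min in reference 1, at 3.75, 3.74, 3.76 and 3.84 in oxidative stress, and at 3.47, 3.41, 3.43 and 3.48 in DNA damage. The 4 values of each culture lay close together. ADH1, ENO2, ACT1 (actin) and RPL3 behaved likewise, with slopes between -0.04 and 0.04 in every culture. Of 20 glycolytic and fermentation genes tested, 3 rose and 1 fell, where 27.1% and 32% of all genes did. These messages are among the brightest on the array, with mean late levels of 15.1 to 15.43 for these 5 genes. RPO21, the largest subunit of RNA polymerase II, had slopes of -0.07, -0.08 and -0.08.

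Stress messages that climbed in the first 20 min had levelled off. The difference between the late and the early slope, tested over the 3 cultures, was lower for 575 genes (14.8%) and higher for 346 (8.9%). This balance is relative to the median gene and turned over on other scales, to 1192 higher and 157 lower as deposited and to 662 higher and 212 lower with arrays centred on the poly-A spike-ins. With only 2 cultures these totals were 482 without reference 1, 524 without oxidative stress and 556 without DNA damage, against 921. Of 51 general stress genes, 44 had a lower late than early slope and 0 a higher one, and on those other scales 36 and 38 were lower and 0 higher. Their median early slopes were 0.799, 0.54 and 0.689, and their median late slopes 0.0442, 0.0159 and 0.0145. HSP26, a small heat shock protein, had early slopes of 1.89, 1.76 and 2.23 and late levels that moved only from 3.67 to 3.88, from 3.44 to 3.63 and from 3.27 to 3.37. Its late minus early slope was -1.90 ± 0.11 (SE, n = 3 cultures, adjusted p = 0.002). GPH1, glycogen phosphorylase (-1.73), SPI1, a cell wall protein (-1.65), and SSA4, a heat-inducible Hsp70 (-1.63), behaved alike. As deposited, HSP26 stood at 12.29, 12.71 and 10.93 at 0 min in reference 1, oxidative stress and DNA damage, against a mean late level of 15.29. SSA4 stood at 12.97, 13.32 and 11.97, against 15.22. Both thus rose on the deposited scale as well, and whether such messages were still made after the shift was not tested. Of 34 heat shock chaperone genes, 18 were lower late than early and 0 higher, and 13 were lower on each of the other scales, with 2 higher as deposited and 1 by spike-ins. HSP30 and SSA3 had the largest mean late slopes of that list, and SSB1 and SSB2, the ribosome-associated Hsp70 pair, the lowest. SSB1 shares its probe set with another gene.

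Ribosome assembly messages moved the other way. Of 148 genes of ribosome biogenesis on the array, 58 passed the level filter, and the others are not described. That filter used late levels, so members that kept falling could be left out. It therefore favours a higher late than early slope among the genes kept, here and for the polymerase subunits below. The 58 genes had median early slopes of -0.896, -0.909 and -0.62 and median late slopes of 0.12, 0.206 and -0.125. Of all genes, 8.9% had a higher and 14.8% a lower late than early slope relative to the median gene. The late slope exceeded the early one in 45 of the 58 and was below it in 0, with 54 and 52 higher on the deposited and spike-in scales. All 11 of 19 subunits of RNA polymerases I and III that passed the filter also had a higher late slope. PNO1, an assembly factor of the small subunit, stood at -0.36, -0.34, -0.36 and 0.48 in reference 1, at -1.04, -0.79, -0.63 and -0.14 in oxidative stress, and at -1.65, -1.52, -1.25 and -1.03 in DNA damage. In reference 1 only the 60 min array was high, while both stressed cultures climbed at each step. The late minus early slope of PNO1 was 1.58 ± 0.12 (SE, n = 3 cultures, adjusted p = 0.0026), and that of RPA34, a subunit of RNA polymerase I, was 1.65 ± 0.10 (adjusted p = 0.002). Over the 3 cultures 26 of the 58 genes rose late and 6 fell, where 27.1% and 32% of all genes did. Without the 60 min arrays, however, 12 of the 58 rose and 14 fell. The list's median centred level in reference 1 was -0.443, -0.461 and -0.454 at 30, 40 and 50 min and -0.0142 at 60 min.

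**Figure D4:**
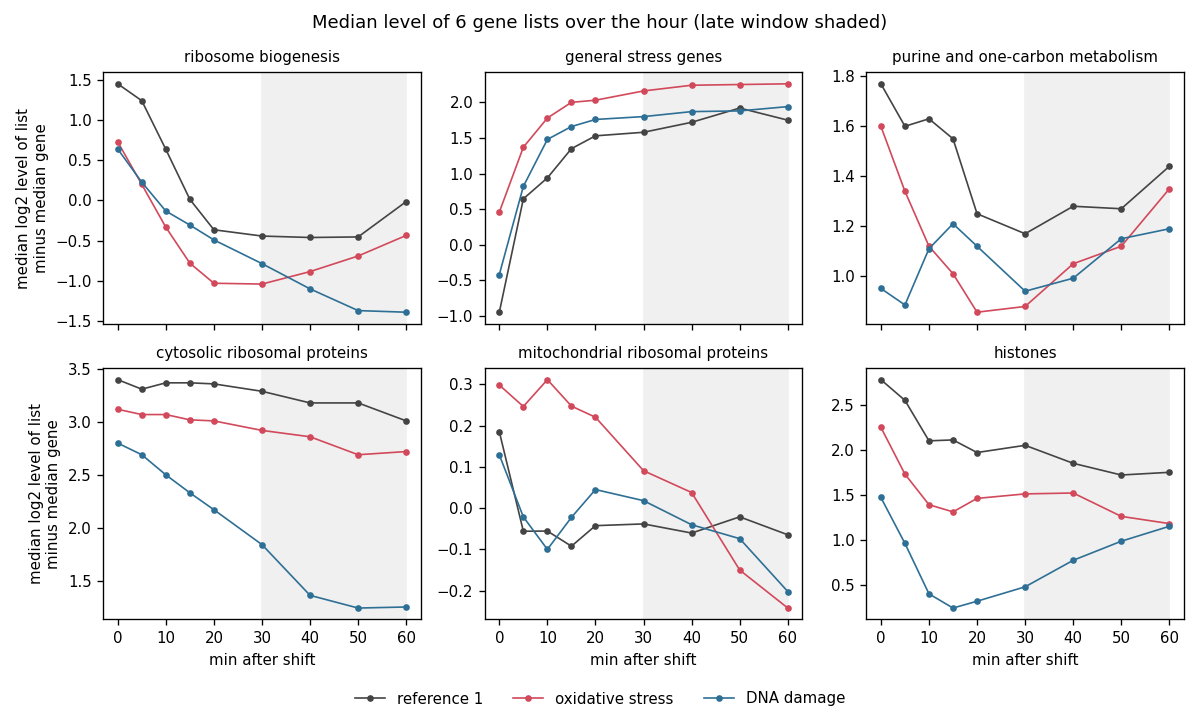
Median log2 level of 6 gene lists minus the median gene (y axis, scaled to each panel) against minutes after the shift (x axis), 1 line per culture, with the late window shaded. Ribosome biogenesis genes drop by 20 min, then turn upward in oxidative stress and, at 60 min alone, in reference 1, while they go on falling in DNA damage, and general stress genes climb early and level off.

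Ribosome assembly genes also differed in late slope between DNA damage and reference 1. Across all genes, the slope in DNA damage was higher for 542 (13.9%) and lower for 773 (19.9%), a balance that quantile normalization turned to 658 higher and 581 lower. Of the 58 ribosome biogenesis genes, 36 were lower and 1 higher. NOP15, a large-subunit assembly factor, stood at -1.0, -0.65, -0.64 and 0.47 in reference 1, at -1.80, -1.45, -1.15 and -0.41 in oxidative stress, and at -1.71, -2.71, -2.86 and -3.16 in DNA damage. It climbed in reference 1 and oxidative stress and dropped in DNA damage, a difference from reference 1 of -0.89 ± 0.13 (SE of the slope difference, 12 arrays, adjusted p = 0.00068). DBP9, a helicase (-0.81), YTM1 (-0.78) and RPF1 (-0.72), both of the large-subunit pathway, differed likewise. The median late level of the list was 10.8, close to the filter, where the tag background of the DNA damage arrays was also falling. Among the 22 members above the median level, 7 were lower, 1 was higher and the median difference was -0.00998, against -0.218 for the 58. The genes that differed numbered 223 without the 30 min arrays, with 21 members lower, and 611 without the 60 min arrays, with 25 lower.

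Cytosolic ribosomal protein messages fell slowly everywhere. All 128 genes of the list were tested: over the 3 cultures 96 fell and 6 rose, where 32% and 27.1% of all genes did. The median late slopes were -0.0535 in reference 1, -0.0536 in oxidative stress and -0.136 in DNA damage. Against reference 1, 0 differed in oxidative stress, with 0 higher and 0 lower, where 4.19% and 4.63% of all genes were. In DNA damage 42 were lower and 5 higher, where 19.9% and 13.9% of all genes were. The DNA damage culture had already fallen early, at a median of -0.259 log2 per 10 min against -0.00074 in reference 1 and -0.0415 in oxidative stress. Most of its late drop came between 30 and 40 min, when the list median went from 1.84 to 1.36, and then 1.24 and 1.25 at 50 and 60 min. When the 30 min arrays were left out, 37 genes fell over the 3 cultures, and 2 were lower in DNA damage than in reference 1. RPL41A, which shares its probe set with another gene, was the other member with the lowest mean slope beside RPL9A (-0.20, -0.43 and -0.42). RPS14B (0.21, 0.29 and 0.16) and RPL22B (0.11, 0.17 and 0.11), each the B copy of a gene pair, rose.

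Mitochondrial ribosomal protein messages held in reference 1 and fell in both stressed cultures by their medians, more so in oxidative stress. The late slopes of the 70 tested had a median of -0.0038 in reference 1, -0.142 in oxidative stress and -0.0633 in DNA damage. Across all genes the oxidative stress slope was higher than that of reference 1 for 163 (4.19%) and lower for 180 (4.63%), and of the 70 genes 31 were lower and 0 higher. In DNA damage 21 of the 70 were lower than in reference 1 and 2 higher, where 19.9% and 13.9% of all genes were. MRPL37 had slopes of -0.20, -0.38 and -0.03, so it also fell in reference 1, and MRPL50 of -0.09, -0.22 and -0.27. A second list, of 39 genes for mitochondrial assembly, import and translation, had medians of -0.023, -0.147 and -0.072. Of these genes 14 were lower in oxidative stress and 0 higher, and 9 were lower in DNA damage and 2 higher. COX17, a copper chaperone for cytochrome oxidase, stood at 0.68, 0.77, 0.73 and 0.73 in reference 1, at 1.52, 1.35, 1.04 and 0.76 in oxidative stress, and at 0.06, -0.34, -0.47 and -0.77 in DNA damage. It was level in the unstressed culture and dropped at every step in both stressed ones, and the slope of each differed from that of reference 1 by -0.27 ± 0.038 (SE, adjusted p = 0.0033 and 0.00052). The counts for oxidative stress minus reference 1 need all 4 times. In all, 4 genes differed without 30 min, 84 without 40 min, 127 without 50 min and 14 without 60 min, against 343. In that comparison none of either mitochondrial list passed without 30 or without 60 min. The median difference of the ribosomal protein list was -0.156 and -0.134 there, against -0.131 with all times.

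Some messages of peroxide defence fell late in the peroxide culture. Of 46 antioxidant genes tested, 15 had a lower slope in oxidative stress than in reference 1, 1 a higher one and 30 did not pass. Across all genes 4.63% were lower and 4.19% higher. Of the 46 genes, 2 were lower without the 30 min arrays and 5 without the 60 min arrays. SRX1, sulfiredoxin, which repairs overoxidised peroxiredoxins, stood at -0.36, -1.23, -1.48 and -1.75 in oxidative stress, at 2.37, 2.19, 2.07 and 2.07 in DNA damage, and at -2.46, -2.52, -2.33 and -2.36 in reference 1. It dropped at each step in the peroxide culture and stayed high in the MMS culture. GTT2, a glutathione transferase, went from 1.76 through 1.14 and 0.59 to 0.30 in oxidative stress while it held between 2.26 and 2.31 in DNA damage. GPX2, a glutathione peroxidase, went from 2.18 through 1.46 and 0.71 to 0.13 in oxidative stress, and from 2.71 through 2.50 and 2.52 to 2.30 in DNA damage. TSA2, a peroxiredoxin, did neither: it stood at 3.26, 3.29, 3.28 and 3.33 in oxidative stress and at 2.80, 2.73, 2.90 and 2.86 in DNA damage.

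The differences in late slope between oxidative stress and reference 1 were -0.49 ± 0.073 for SRX1 (SE, adjusted p = 0.0046), -0.59 ± 0.042 for GTT2 (adjusted p = 3e-05) and -0.55 ± 0.041 for GPX2 (adjusted p = 3e-05). That of SRX1 did not pass without the 30 min arrays (-0.34, adjusted p = 0.085). OYE3, an NADPH dehydrogenase (-0.51), and RTN2, a reticulon of the endoplasmic reticulum (-0.43), did not pass without 30 or without 60 min. The largest difference was that of LSO1, a small open reading frame, which went from -0.30 through -1.15 and -1.86 to -2.60 in oxidative stress and from 0.78 through 0.84 and 1.04 to 1.03 in DNA damage. In reference 1 SRX1, OYE3 and LSO1 lay between -2.84 and -2.12 relative to the median gene, which are low values. The tag probe sets of those arrays lay between -2.53 and -2.31 relative to the median of all probe sets, a lower zero. The median late level was 11.7 over genes tested and 11.05 over all probe sets, so the ranges cannot be compared directly. How near these genes were to background was not tested. On the 60 min oxidative stress array LSO1 stood at -2.60 and the tag probe sets at -3.48, again on those different scales.

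In the other direction, FAA4, a long-chain acyl-CoA synthetase, fell in reference 1 (1.89, 1.40, 1.10 and 0.99) and in DNA damage (0.79, 0.44, 0.09 and -0.08) and rose in oxidative stress (0.91, 0.87, 1.00 and 1.29). URA1, of pyrimidine synthesis, had slopes of -0.43, -0.04 and -0.58 in reference 1, oxidative stress and DNA damage. SNU13, a protein of the U3 and U4 small RNA particles, climbed from 1.32 to 2.43 in oxidative stress and moved from 2.92 to 3.03 in reference 1. None of FAA4, URA1, PRP43, ADH2, CDC21 and SNU13 passed without the 30 min arrays. Their differences without those arrays ran from 0.23 to 0.41, with adjusted p from 0.059 to 0.25.

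Core histone messages climbed in the DNA damage culture. Of 9 histone genes, 7 were higher there than in reference 1 and 0 lower, where 13.9% and 19.9% of all genes were. The median late slopes were -0.122 in reference 1, -0.0933 in oxidative stress and 0.127 in DNA damage. HTA1, histone H2A, went from 1.78 through 1.41 and 1.28 to 1.26 in reference 1, stood at 0.77, 0.76, 0.69 and 0.83 in oxidative stress, and went from 0.06 through 0.50 and 0.71 to 0.88 in DNA damage. The reference fell and the DNA damage culture climbed toward one another without meeting, a difference in slope of 0.44 ± 0.053 (SE, adjusted p = 0.0003). HTA2 (0.22), HHT1 (0.17), HHF1 (0.13) and HTB1 (0.13) had positive slopes in DNA damage. HHT2 (0.01), HTB2 (-0.23), the linker histone HHO1 (-0.13) and the variant HTZ1 (-0.04) did not share the climb, although the last 2 were among the 7, with lower slopes in reference 1 (-0.29 and -0.19). HTA2 and HHF1 share probe sets with other genes. The count of higher histone genes was 2 without the 30 min arrays and 5 without the 60 min arrays.

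Many cell wall messages fell faster in the DNA damage culture. Of 44 cell wall genes tested, 22 were lower than in reference 1 and 1 was higher, where 19.9% and 13.9% of all genes were. PST1, a wall protein, stood at 1.32, 1.32, 1.32 and 1.33 in reference 1, at 0.95, 1.04, 1.06 and 0.98 in oxidative stress, and at 0.77, 0.27, -0.38 and -1.12 in DNA damage. It was level in reference 1 and oxidative stress and dropped to 0.27 of its 30 min level in DNA damage, a difference of -0.64 ± 0.038 (SE, adjusted p = 9.2e-06). PIR1 had slopes of -0.19, -0.17 and -0.58, and PIR3 of 0.35, 0.39 and 0.01. CYC1 went from 1.90 through 2.06 and 2.23 to 2.38 in reference 1, from 2.59 through 2.27 and 2.01 to 1.95 in oxidative stress, and from -0.33 through -0.87 and -1.46 to -1.81 in DNA damage, and its slope differed from reference 1 by -0.66 ± 0.042 (SE, adjusted p = 9.6e-06). The count of lower cell wall genes was 8 without the 30 min arrays and 15 without the 60 min arrays.

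Genes with a higher late slope in DNA damage included MHT1, a methyltransferase of methionine synthesis (0.47), PHD1, a transcription factor of filamentous growth (0.47), FPR2, a prolyl isomerase of the endoplasmic reticulum (0.44), HPA3, an acetyltransferase (0.43), and APJ1, an Hsp40 co-chaperone (0.42). PHD1 and MHT1 climbed in DNA damage, from 0.12 to 1.64 and from -0.80 to 0.30. FPR2 had another pattern: it went from 1.01 to -0.58 in reference 1 and from 0.11 to -0.12 in DNA damage. Of 14 genes of endoplasmic reticulum folding 7 were higher and 1 lower, and of 27 DNA damage response genes 8 were higher and 1 lower. Of all genes, 13.9% were higher and 19.9% lower in that comparison. Only 1 gene of each of these lists was higher without the 30 min arrays. MAG1, the DNA glycosylase that removes alkylated bases, stood at 0.82, 0.94, 1.12 and 1.19 in DNA damage, at -0.17, -0.25, -0.63 and -0.71 in oxidative stress, and at -0.81, -0.99, -0.94 and -1.35 in reference 1. It climbed in the MMS culture and ended lower than it began in the other two, and its slope differed from reference 1 by 0.29 ± 0.052 (SE, adjusted p = 0.0021).

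The stressed cultures differed from each other at more genes than either did from reference 1. The late slope was higher in oxidative stress than in DNA damage for 862 genes (22.2%) and lower for 759 (19.5%), and 630 differed without the 30 min and 722 without the 60 min arrays. Of 58 ribosome biogenesis genes 40 were higher in oxidative stress and 0 lower, of 26 ergosterol genes 16 and 0, of 44 cell wall genes 25 and 2, and of 128 cytosolic ribosomal protein genes 43 and 1. Of 35 proteasome genes 0 were higher and 12 lower, and of 9 histone genes 0 and 7.

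**Figure D5:**
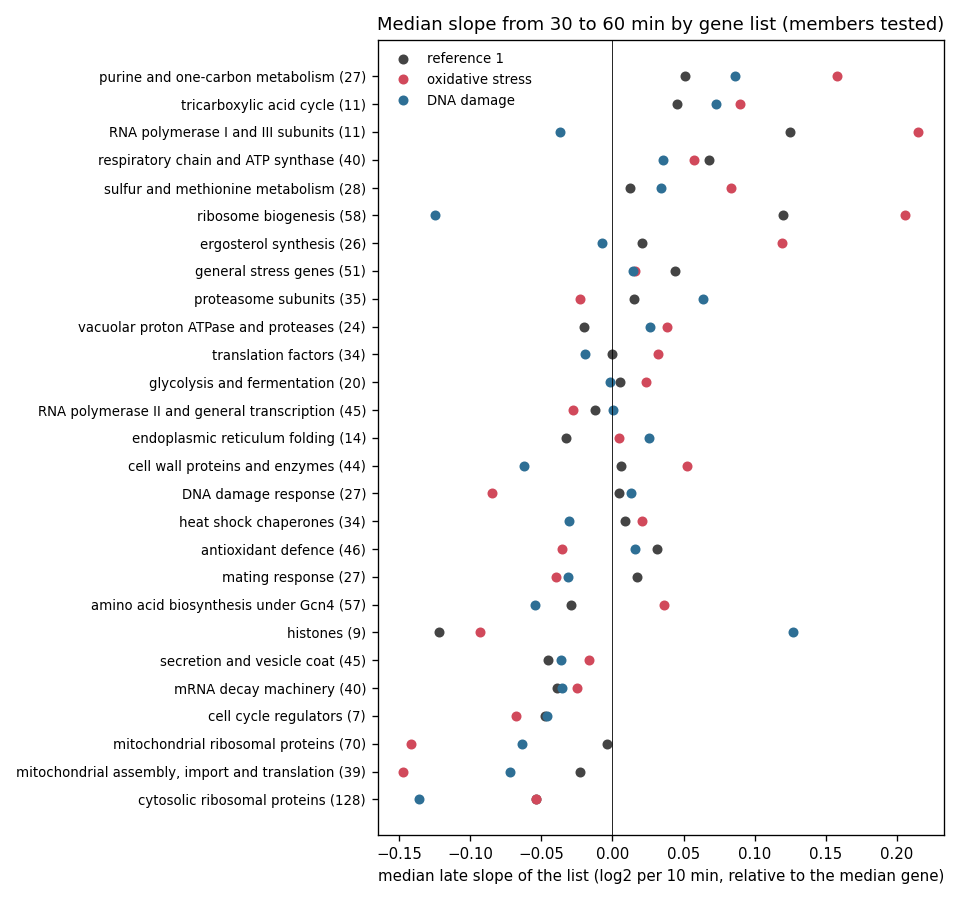
Median late slope (x axis, log2 per 10 min relative to the median gene) of 27 gene lists (y axis, members tested in brackets), 1 point per culture. The 3 points of a list lie close together for the tricarboxylic acid cycle, glycolysis and mRNA decay machinery, and far apart for ribosome biogenesis and histones, where the DNA damage point stands on the other side of 0.

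Counts over the 3 cultures for the remaining lists are read against all genes tested, of which 27.1% rose and 32% fell. Of 40 genes of the mRNA decay machinery 20 fell over the 3 cultures and 7 rose, with medians of -0.0387, -0.0248 and -0.0358. LSM7, of the ring that binds the 3′ end of deadenylated messages, had slopes of -0.17, -0.29 and -0.37. Of 45 secretion genes 18 fell and 2 rose, with SSS1, a subunit of the translocation channel, at -0.26, -0.23 and -0.21. Of 57 amino acid genes under the activator Gcn4, 22 fell and 9 rose. Of 26 ergosterol genes 13 rose and 4 fell, of 28 sulfur and methionine genes 13 and 5, and of 35 proteasome genes 9 and 2. Translation factors, genes of RNA polymerase II and general transcription, vacuolar genes and mating genes each held about as many rising as falling members (8 and 5 of 34, 13 and 13 of 45, 7 and 5 of 24, 8 and 8 of 27). Only 7 of 31 cell cycle regulators passed the level filter, of which 0 rose and 4 fell. MFA2, which encodes a-factor, a standard unstable message, had a mean late level of 8.94 and was not tested.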

How the data were processed

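RNA was primed with poly(T), labelled with biotin and hybridised to 1-colour arrays, per the labels. The authors deposited log2 expression values made with RMA, per the submitters' processing notes. RMA subtracts background, normalizes and summarises probes, but its settings and version are not stated. The table holds 5900 probe sets on 37 arrays, from 3.69 to 17.5, of which 5498 had 1 gene symbol through the platform annotation and RefSeq locus tags and 402 had none. The brightest probe set stood for a gene. The number of arrays limits the precision, and array background is shown by tag probe sets.

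The 12 late arrays were centred on their median gene, and genes above the 30th percentile of mean late level (10.18) were kept. Slopes were fitted by least squares. limma 3.58.1 in R 4.3.3 tested the mean of the 3 culture slopes (2 residual degrees of freedom), the late minus early slope (30 to 60 against 0 to 20 min), and culture differences in 1 fit of 12 arrays with a line per culture (6 residual degrees of freedom). These last p-values measure the scatter of arrays about the lines of single cultures. Benjamini-Hochberg adjustment was over all 3887 genes at 0.05. On simulated slopes with 200 changed genes, sizes of 0.1, 0.2, 0.3 and 0.4 were recovered at 20, 94, 100 and 100% for the common slope (14 false calls) and at 18, 70, 88 and 100% for oxidative stress minus reference 1 (7 false calls). The simulation drew independent normal values with the fitted spread of each gene and gave the other genes no effect. These shares describe the procedure under those settings and not its power in these cultures, where the common slope test called 0 genes.

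Named genes were up to 12 per direction for the common slope, up to 6 per direction of the largest size among those that passed for each other comparison, up to 2 members per side of 0 for each list, and a fixed set that includes RPO21, ACT1, PGK1, COX17, HTA1, HSP26, SRX1, TSA2 and MAG1. Since no gene passed the common slope test, genes falling or rising in all 3 cultures were named after their values were seen. The members and lists were chosen with earlier results of these data known. Lists come from textbook knowledge of gene function. No sequences or coordinates were used. Alternatives changed the centring, the filter, the probe set rule, the normalization, the time points, the cultures, the early window and the variance model.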

Additional observations from a re-analysis of the deposited data

Results flagged for a closer look

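The late slopes of the cultures differed at the genes below by the test of the difference itself, among up to 6 genes per direction of each comparison. Values are differences in log2 per 10 min, and each treatment is 1 culture. Oxidative stress minus reference 1 was lower at LSO1 (-0.76), GTT2 (-0.59), GPX2 (-0.55), OYE3 (-0.51), SRX1 (-0.49) and RTN2 (-0.43). It was higher at FAA4 (0.43), URA1 (0.39), PRP43, an RNA helicase (0.37), ADH2, the glucose-repressed alcohol dehydrogenase (0.36), CDC21, thymidylate synthase (0.35), and SNU13 (0.33). DNA damage minus reference 1 was lower at NOP15 (-0.89), DBP9 (-0.81), YTM1 (-0.78), RPF1 (-0.72), CYC1 (-0.66) and PST1 (-0.64), and higher at MHT1 (0.47), PHD1 (0.47), FPR2 (0.44), HTA1 (0.44), HPA3 (0.43) and APJ1 (0.42). Oxidative stress minus DNA damage was lower at LSO1 (-0.85), GPX2 (-0.57), OYE3 (-0.55), GTT2 (-0.51), APJ1 (-0.50) and YML053C (-0.50). It was higher at NOP15 (0.90), RPF1 (0.77), YTM1 (0.77), DBP9 (0.74), BRX1, a large-subunit assembly factor (0.72), and CYB2, cytochrome b2 (0.70). In DNA damage CYB2 lay between -4.63 and -3.44 and ADH2 between -4.12 and -3.02, low values where the tag background fell as well.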

How the results depend on the processing

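With every array left uncentred, 0 genes rose and 3096 fell by the common slope test, and 1 rose and 2613 fell (2614 in all) when arrays were centred on the poly-A spike-ins, because the fall of the median gene, -0.214 and -0.185 log2 per 10 min in the mean, then stays in every slope. The same scales left 1 and 3 genes for oxidative stress minus reference 1, 2 and 4 for DNA damage minus reference 1 and 3 and 13 for oxidative stress minus DNA damage, against 343, 1315 and 1621, and of these only 3 of the 13 were higher; uncentred arrays keep the zigzag of the medians as scatter. The common slope test gave 2296 genes with 12 arrays as the unit, 16 with an intensity trend, 1 without 30 min, 0 without reference 1, 16 without oxidative stress and 750 without DNA damage, so leaving out a culture spanned 0 to 750. Late minus early was 88.4% higher as deposited, 75.7% by spike-ins, 22.7% by quantile normalization of genes above the 50th percentile and 37.6% as reported, and spanned 482 to 556 on leaving out a culture, against 921. Without the level filter 156 genes passed for oxidative stress minus reference 1 and 2175 for DNA damage minus reference 1. Leaving out a time gave 4, 84, 127 and 14 genes (30, 40, 50 and 60 min) for the first of these, 223 and 611 (30 and 60 min) for the second and 630 and 722 for oxidative stress minus DNA damage. Quantile normalization with genes above the 50th percentile, chosen after the data were seen, gave 222 and 1052 for oxidative stress minus reference 1 and minus DNA damage, from 2774 genes. The share of higher genes moved from 47.5% to 28.6% without 60 min for oxidative stress minus reference 1. No named difference reversed. Of the named results, late minus early included, 30 no longer passed as deposited and 18 did, and 20 no longer passed by spike-ins and 28 did. The 12 late minus early results passed on both scales, so all those lost were among the 36 named differences between cultures. For oxidative stress minus reference 1, SRX1 (adjusted p = 0.355 and 0.0641), OYE3 (0.312 and 0.0515), RTN2 and the named higher genes passed on neither scale. The cause of each shift without a time was not tested, beyond the fewer arrays. Dim genes are limited by the array background. Cultures could not be paired by replicate, because replicate numbers here only name arrays in accession order and each treatment has 1 culture. The late minus early slope was taken within each culture.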

Other observations

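A list of 29 genes of purine synthesis and one-carbon metabolism was put together after ADE17, SHM2 and GCV1 had been seen to rise, so it carries no test. Of its genes, 6 had slopes above 0.1 in all 3 cultures and 2 below -0.1 in all 3. Of its 27 members above the level filter, 17 had positive late slopes in all 3 cultures and 3 negative ones in all 3, where 22.2% and 23.3% of all genes did. The list's median late slopes were 0.0511 in reference 1, 0.158 in oxidative stress and 0.0863 in DNA damage. Its median centred level in reference 1 went from 1.77 at 0 min to 1.17 at 30 min and 1.44 at 60 min, and in oxidative stress from 1.60 to 0.879 and 1.35. GCV3, of the glycine cleavage complex, had slopes of 0.06, 0.16 and 0.14, MTD1, a one-carbon dehydrogenase, 0.12, 0.18 and 0.25, and ADE2, of purine synthesis, 0.11, 0.20 and 0.11. The 3 members that went down in every culture included MIS1, the mitochondrial one-carbon synthase (-0.32, -0.13 and -0.50), and GUA1, GMP synthase (-0.20, -0.14 and -0.18).

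Early and late slopes were only weakly related. Over 3887 genes the slope from 0 to 20 min and that from 30 to 60 min correlated with r = 0.09 in reference 1, -0.04 in oxidative stress and 0.25 in DNA damage. The slope of reference 2, a separate culture, from 0 to 30 min correlated with the late slopes with r = 0.27 in reference 1, 0.08 in oxidative stress and 0.27 in DNA damage. None of these pairs of slopes shares an array, and these correlations are descriptions across genes.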
